A study of Brassica napus with 12 samples.

Results

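Zhongshuang 9 and Avatar, 2 cultivars of Brassica napus (oilseed rape), were compared with each other while both were under water. The comparison covers the 6 submergence libraries among the 12 of the study, 3 of Zhongshuang 9 and 3 of Avatar, taken by their labels. The groups used are Zhongshuang 9 after 24 h of full submergence in tap water, Avatar after the same treatment, Zhongshuang 9 kept in air for 24 h in similar boxes without water, and Avatar kept likewise. All plants were grown in sand and soil in 8 h days and were treated from day 15. The tissue was the first true leaf, taken at an age of 16 days. The labels name no transgene or mutation in any group. The labels do not say whether a library holds 1 plant or a pool, nor whether replicates 1, 3 and 4 came from separate sowings, so p-values measure only the spread between these libraries.

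A submerged leaf exchanges gas slowly: ethylene builds up, oxygen and carbon dioxide become scarce, and in darkness the tissue turns from respiration to glycolysis and fermentation. Plants sense the loss of oxygen through cysteine oxidases that mark a group of ethylene response transcription factors for breakdown when oxygen is present. Brassica napus is an allotetraploid with an A and a C subgenome, so most functions are encoded by closely related A and C copies. Cultivars of the species can differ in the sequence, number and activity of such copies. The features measured here are 101040 annotated coding sequences, called targets below. Their identifiers give the chromosome and a number in the order along it ("nn" where the position is unknown). Of these identifiers, 3347 (3.31%) were found in RefSeq's table for the Da-Ae assembly, and 2 of them have a further name there. Functions are therefore not given for the other targets, and markers of leaf or of other cell types could not be read.

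The 6 libraries held 24389813 to 35487108 estimated counts, the lowest in Zhongshuang 9 replicate 4. Levels are given as CPM, counts scaled to a common library size with TMM factors over all 12 libraries, or as deposited TPM where levels of different targets are set side by side. A count of 0 allows up to 3 counts, or 0.0704 to 0.112 CPM in 1 library, and this floor covers counting error only. Values of near-identical copies are uncertain one by one, since reads that fit several targets were divided between them.

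The library labelled Zhongshuang 9 submergence replicate 1 stood apart from its group. Across the 52174 targets tested, its rank correlation was 0.883 with Zhongshuang 9 replicate 3 and 0.884 with replicate 4, which correlated at 0.987 with each other. Avatar replicates correlated at 0.941 to 0.968. Among 41924 targets at a mean of at least 1 CPM, 20.1% and 20.2% differed at least 2-fold between Zhongshuang 9 replicate 1 and replicates 3 and 4, against 1.6% between replicates 3 and 4. For Avatar the share was 5.3% between replicates 3 and 4, and 11% and 12.4% between replicate 1 and these. Between a Zhongshuang 9 and an Avatar library it was 30.5% to 31.3% where Zhongshuang 9 replicate 1 was in the pair and 25% to 26.9% otherwise. So replicate 1 of Zhongshuang 9 was farther from the Avatar libraries than the other 2 of its cultivar were.

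The air libraries gave a set of markers for each cultivar. In air, 227 targets had at least 10 counts in every Zhongshuang 9 library and none in any Avatar library, and 405 targets showed the reverse pattern. Of these Zhongshuang 9 markers, 65.2% had at least 3 counts in submerged Zhongshuang 9 replicate 1, 97.4% in replicate 3 and 96% in replicate 4, against 6.2% to 8.4% in submerged Avatar libraries. Of the Avatar markers, 38% had at least 3 counts in Zhongshuang 9 replicate 1 and 2.5% in each of replicates 3 and 4, against 91.1% to 95.8% in Avatar. Replicate 1 thus lacked a part of the markers of its own cultivar and held a part of those of Avatar.

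**Figure D1:**
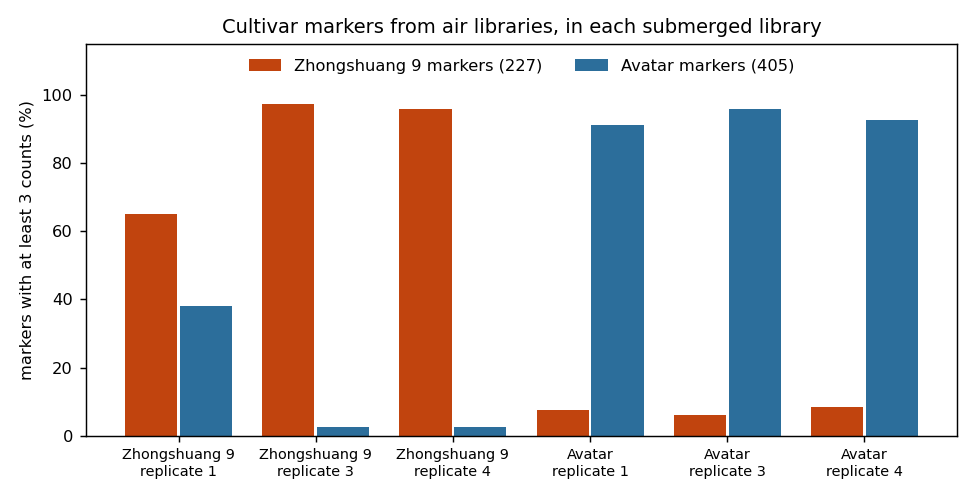
Share of cultivar markers (vertical axis, %) with at least 3 counts in each submerged library (horizontal axis). Bars show the 227 Zhongshuang 9 markers and the 405 Avatar markers, both chosen in air libraries; Zhongshuang 9 replicate 1 had 65.2% of the first and 38% of the second kind.

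These markers were not spread evenly over the chromosomes of that library. On C01, 25 of 33 Avatar markers were counted in Zhongshuang 9 replicate 1, on C05 12 of 20 and on A03 14 of 28. On C06 it was 3 of 22, on C04 3 of 23 and on C07 3 of 18. A wider set was uneven too: 3530 placed targets differed at least 4-fold between the cultivars in air and passed the test there. Zhongshuang 9 replicate 1 was nearer to the Zhongshuang 9 air mean than to the Avatar air mean for 64.5% of them, replicate 3 for 89.9% and replicate 4 for 89.7%, against 16.1% to 20.1% in the Avatar libraries. By chromosome, the share in replicate 1 was 49.4% on A07, 49.5% on C01, 63% on C05, 67.1% on A03 and 67.3% on C07. It was 74.5% on C06 and 76.4% on C04, so the chromosomes ranked only in part as by the markers. In consecutive blocks of 20 such targets, this share ran from 5% to 100% in replicate 1, with 43 of 169 blocks at 80% or more and 6 at 20% or less. In replicates 3 and 4 the lowest blocks stood at 70% and 75%. The lowest blocks of replicate 1, both at 5%, were neighbours on C01 (gene numbers 37560 to 38040 and 38050 to 38620), where replicates 3 and 4 stood at 100%.

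Some targets were counted in that library alone. With a minimum of 2 CPM there and at most 2 counts in each of the other 5 Zhongshuang 9 libraries, 218 targets were private to replicate 1, on all 19 chromosomes and 59 of them on C01. Of the 218, 66 reached 1 CPM in every Avatar library, and 55 had at most 2 counts in every Avatar library. No other Zhongshuang 9 library had more than 1 private target, and the highest number in Avatar was 7, in submergence replicate 1. Conversely, 333 targets at 2 CPM or more in every other Zhongshuang 9 library had at most 2 counts in replicate 1, and 157 of these were on C02. By the same measure Avatar air replicate 3, one of the libraries of the air comparison, lacked more: 455 targets, 284 of them on C03 and 142 on C02. No other library lacked more than 25.

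In the response to water the same library did not stand apart. The 10479 targets called higher under submergence than in air in Avatar had a median log2 CPM of 2.98, 2.98 and 2.95 in submerged Zhongshuang 9 replicates 1, 3 and 4, against 1.54 to 1.71 in Zhongshuang 9 air libraries. The 10730 targets called lower in Avatar had medians of 1.93, 1.94 and 1.99 in the submerged replicates, against 3.26 to 3.39 in air. Why this library stood apart was not tested.

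Under submergence 9161 of the 52174 targets tested differed between the cultivars, 17.6% (edgeR quasi-likelihood test, Benjamini-Hochberg adjusted p under 0.05). Of these, 4138 (7.93%) had higher levels in Zhongshuang 9 and 5023 (9.63%) had lower ones. At least 2-fold differences numbered 2961 higher and 4160 lower, and 1376 targets differed at least 16-fold. With Zhongshuang 9 replicate 1 left out, 13142 of 53746 targets (24.5%) were called, 5282 higher and 7860 lower (9.83% and 14.6%). Of the 9161 calls 8473 (92.5%) held in the same direction without that library, none turned round, and 686 did not pass. A further 4235 targets tested in both fits were called only without it, 1274 higher and 2961 lower. Replicate 1 stood nearer to the Avatar mean for 81.4% of these 4235 and for 3% of the 8473 shared calls, and both sets were chosen with its values. Of the 9923 targets called at least 2-fold apart without it, replicate 1 was nearer to its own cultivar for 69.7%, with a median position of 0.887 on a scale on which Avatar is 0 and the other Zhongshuang 9 libraries are 1. The same measure gave 97.4% and 98% for Zhongshuang 9 replicates 3 and 4, each over the targets called without it, against 82.8% to 94.1% for Avatar libraries. Those sets for replicates 3 and 4 held 4518 and 4447 targets and were called with replicate 1 in the group, so the shares are over unlike sets. Median positions toward the own cultivar were 0.975 and 0.936 for replicates 3 and 4, and 0.898 to 0.983 for Avatar libraries. Leaving out Avatar replicate 1 kept 73.6% of the 9161 calls in the same direction, and Avatar replicate 3 or 4 kept 49.4% and 54.1%. For Zhongshuang 9 replicate 3 or 4 it was 51.7% and 50.8%. The count of calls was 8102 without Avatar replicate 1. This count was 4838 and 4752 without Zhongshuang 9 replicate 3 or 4 and 4787 and 5295 without Avatar replicate 3 or 4. Without replicate 1 of both cultivars it was 18469 (35.2%), 8275 higher (15.8%) and 10194 lower (19.4%). Of the 9161 calls, 9155 had groups that did not overlap in CPM, as did 41.2% of all targets tested.

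**Figure D2:**
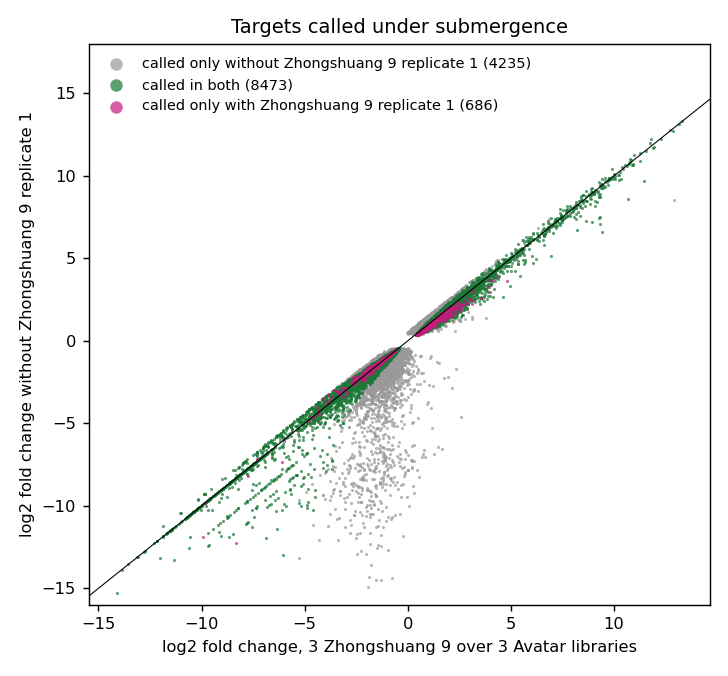
Log2 fold change of Zhongshuang 9 over Avatar under submergence with all 6 libraries (horizontal axis) and without Zhongshuang 9 replicate 1 (vertical axis), for targets tested in both fits and called in either. Most of the 8473 targets called in both lie near the diagonal, and many of the 4235 called only without that library reach far lower values without it.

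The calls spanned all levels of expression. Among targets at a mean of 100 CPM or more, 23.2% of 1218 were called, 207 higher and 75 lower in Zhongshuang 9. At 10 to under 100 CPM it was 19.3% of 14222, with 1568 higher and 1175 lower. At 1 to under 10 CPM 17.4% of 26484 were called and lower ones prevailed, with 1776 higher and 2834 lower. Under 1 CPM 14.9% of 10250 were called, all of them at least 2-fold apart. Without Zhongshuang 9 replicate 1 these shares were 31.5%, 27.5%, 24.7% and 18.4%, in the same order. So, with all 6 libraries, higher calls outnumbered lower ones from 10 CPM upward, and lower calls outnumbered higher ones below it. In deposited TPM, the targets called higher held 18%, 15.4% and 15.56% of the total in Zhongshuang 9 replicates 1, 3 and 4, against 6.63% to 7.7% in Avatar libraries. The targets called lower held 3.42% to 3.45% in Zhongshuang 9 and 11.82% to 12.5% in Avatar. For the calls made without Zhongshuang 9 replicate 1, the higher ones held 20.08% and 20.22% in Zhongshuang 9 and 8.86% to 10.12% in Avatar, and the lower ones 5.67% and 5.75% in Zhongshuang 9 and 18.32% to 18.92% in Avatar. The calls fix the direction of these shares, and their size is a description.

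The largest differences were between presence and absence. BnaC07g37380D, a short coding sequence of 255 bases on C07, was at 32.05, 35.01 and 38.05 CPM in Zhongshuang 9 replicates 1, 3 and 4, with no count in any Avatar library. It was at least 447-fold higher in Zhongshuang 9, with 3 counts per library as the floor for Avatar (edgeR adjusted p = 0.000423). The groups lay far apart, and all 3 Zhongshuang 9 libraries, replicate 1 included, were alike. In air it had 4.40 to 4.96 CPM in Zhongshuang 9 and again no count in Avatar.

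BnaC02g38180D, with 1377 coding bases on C02, stood at 30.34, 32.61 and 31.59 CPM in Zhongshuang 9 and had no count in Avatar (at least 402-fold higher, edgeR adjusted p = 0.000383). Per length it was the scarcer of the pair, at 15.53 to 15.75 TPM in Zhongshuang 9, where BnaC07g37380D had 286.4 to 299.2 TPM.

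BnaC06g04730D, with 207 coding bases on C06, had no count in any submerged Zhongshuang 9 library. In Avatar replicates 1, 3 and 4 it was at 56.85, 56.4 and 46.84 CPM, so it was at least 572-fold lower in Zhongshuang 9 (edgeR adjusted p = 0.000436). In air it had a single count's worth in 1 Zhongshuang 9 library (0.0375 CPM) and 11.47 to 11.76 CPM in Avatar. Both this target and BnaC07g37380D were thus at several times their air level in the submerged cultivar that had them.

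BnaA09g54870D, with 288 coding bases on A09, was nearly silent in submerged Zhongshuang 9, at 0.151, 0 and 0.0748 CPM. In Avatar it was at 2039, 743.2 and 1700 CPM in replicates 1, 3 and 4, or 4843 to 14110 TPM (log2 fold change -14.10 ± 0.94, SE, n = 3 each; edgeR adjusted p = 0.000651). The groups did not overlap, but Avatar varied more than 2-fold within itself, and in air Avatar replicate 3 had no count while replicates 1 and 4 had 668 and 480.5 CPM. These 4 targets were chosen among those that passed both with and without Zhongshuang 9 replicate 1, so passing without it was fixed by the choice. Their edgeR adjusted p-values were then 0.000236 to 0.000471.

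The targets with a name in RefSeq did not pass the test. KCP1 (BnaA02g32290D) was at 38.83, 43.07 and 43.89 CPM in Zhongshuang 9 and 34.66, 36.63 and 36.47 CPM in Avatar, a log2 fold change of 0.26 ± 0.11 (SE, edgeR adjusted p = 0.173). TR1 (BnaCnng15100D) was at 12.63, 9.54 and 9.83 CPM in Zhongshuang 9 and 8.88, 8.03 and 7.34 CPM in Avatar, a log2 fold change of 0.44 ± 0.17 (SE, edgeR adjusted p = 0.133). Left without Zhongshuang 9 replicate 1, the log2 fold changes were 0.28 for KCP1 and 0.26 for TR1 (edgeR adjusted p = 0.127 and 0.26). Every Zhongshuang 9 library lay above every Avatar library for both, as the groups failed to overlap for 41.2% of all targets.

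Zhongshuang 9 replicate 1 decided the call of other targets by its own level. BnaC01g38060D on C01 was at 84.66 CPM in Zhongshuang 9 replicate 1 and had no count in replicates 3 and 4, against 99.04, 106.7 and 120.9 CPM in Avatar. Its log2 fold change was -1.90 ± 2.18 (SE, edgeR adjusted p = 0.598) with that library. Without that library the target passed the test (edgeR adjusted p = 0.000227). The size of the difference is then not finite, as no Zhongshuang 9 library left had a count. In air no Zhongshuang 9 library had more than 0.0375 CPM of it and Avatar had 75.94 to 93.77 CPM. BnaAnng37450D, on an unplaced A sequence, was at 97.05, 0 and 0 CPM in Zhongshuang 9 and at 64.88, 85.89 and 96.21 CPM in Avatar. Here too replicate 1 was at the level of Avatar and the call was made only without it (edgeR adjusted p = 0.727 with it and 0.000287 without it). In air BnaAnng37450D was at 4.58, 0 and 0 CPM in Zhongshuang 9 replicates 1, 3 and 4, so an air library of that cultivar held some of it too. Avatar had 97.31 to 100.2 CPM in air.

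The reverse held for targets of which replicate 1 had little. BnaCnng42700D was at 0.0251 CPM in Zhongshuang 9 replicate 1 and at 67.46 and 75.06 CPM in replicates 3 and 4, against 0.423, 0.457 and 0.95 CPM in Avatar. BnaC01g18730D on C01 was at 0.779, 31.5 and 33.83 CPM in Zhongshuang 9 and at 0.54, 0 and 0 CPM in Avatar. With all libraries these did not pass the test (edgeR adjusted p = 0.0799 for BnaCnng42700D and 0.0514 for BnaC01g18730D). Without replicate 1 their log2 fold changes were 6.86 ± 0.35 and 7.38 ± 0.99 (SE, edgeR adjusted p = 0.000284 and 0.00416). In air both were high in all 3 Zhongshuang 9 libraries, at 72.11 to 85.72 CPM for BnaCnng42700D and 19.36 to 25.87 CPM for BnaC01g18730D.

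**Figure D3:**
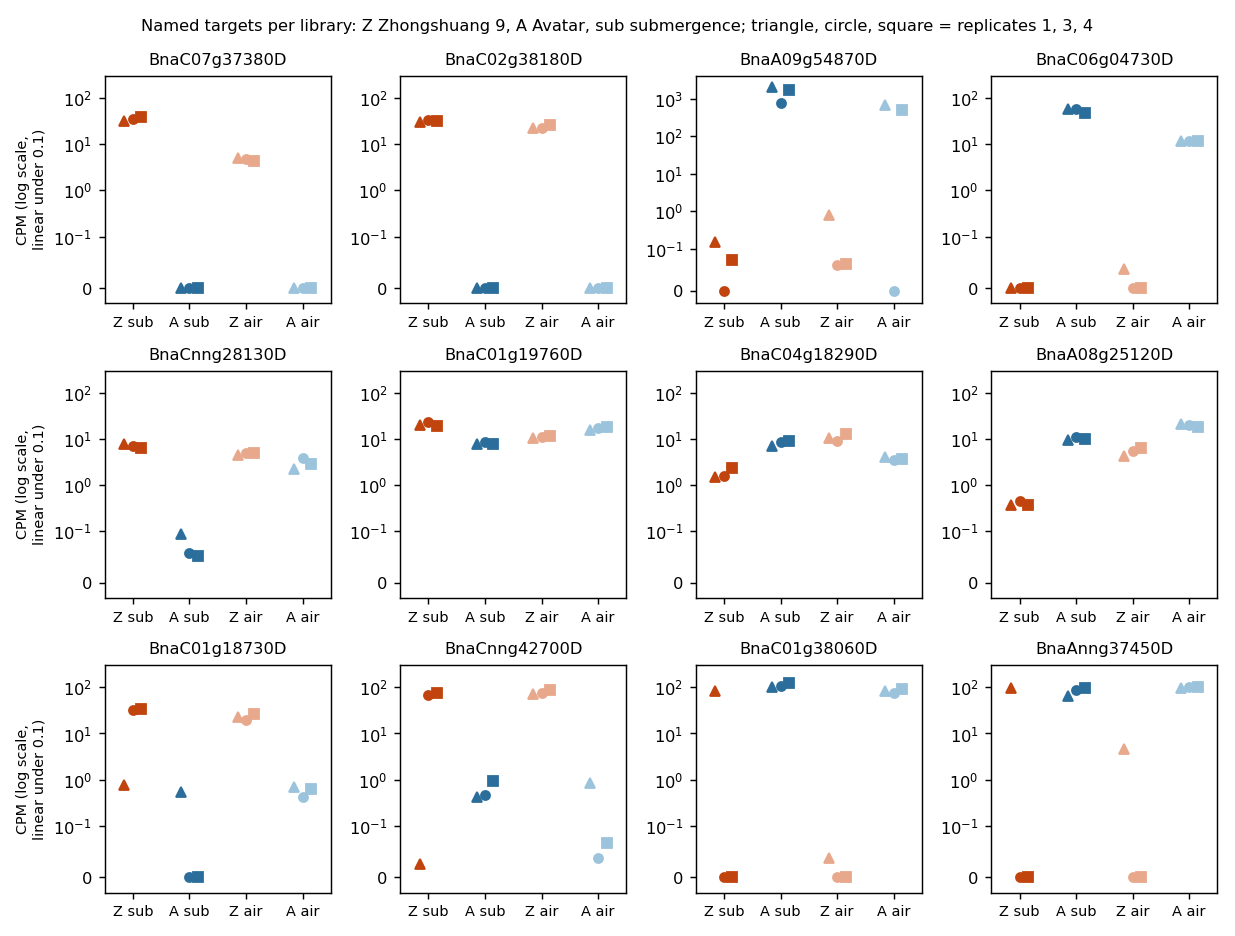
CPM (vertical axis, log scale that is linear under 0.1) of the 12 targets named from the comparisons, in submerged Zhongshuang 9, submerged Avatar, Zhongshuang 9 in air and Avatar in air. Each point is 1 library (triangle, circle and square for replicates 1, 3 and 4); in the bottom row the triangle of submerged Zhongshuang 9 lies apart from its circle and square, as for BnaC01g38060D at 84.66 CPM.

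Presence in only one cultivar was common beyond these. Under submergence 612 targets had at least 1 count in every Zhongshuang 9 library and none in Avatar, and 1034 had at least 1 count in every Avatar library and none in Zhongshuang 9. Most were scarce, with median levels of 0.154 CPM in Zhongshuang 9 and 0.211 CPM in Avatar where present. With at least 10 counts in every library of the cultivar the numbers were 135 and 374, and these had median coding lengths of 606 and 475.5 bases, against 1056 bases over all targets tested. Leaving out Zhongshuang 9 replicate 1 gave 1037 targets in Zhongshuang 9 only and 1900 in Avatar only (243 and 726 with at least 10 counts). Of the 726, replicate 1 had at least 3 counts for 274 and none for 374. Without Zhongshuang 9 replicate 4 or Avatar replicate 1, 920 and 1017 targets were found in Zhongshuang 9 only.

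Air libraries, which had no part in choosing these targets, mostly repeated the pattern for the better counted ones. For the 612 and 1034 targets with at least 1 count, they repeated it for 198 (32.4%) and 366 (35.4%). Of the 135 targets, 89 (65.9%) were also counted in every Zhongshuang 9 air library and in no Avatar air library. Of the 374, 213 (57%) were counted in every Avatar air library and in no Zhongshuang 9 air library. Only 1 of the 135 and 4 of the 374 had no count in any air library of the cultivar that had them under submergence. The 374 Avatar targets lay on all chromosomes, from 0.181% of the targets on A03 (11 of 6076) to 0.587% on A10 (18 of 3064). On C03 it was 40 of 7835. In the A subgenome were 40.6% of the 374, 47.4% of the 135 Zhongshuang 9 targets and 47.3% of all targets tested. The bases are unlike, since the 374 were drawn from all targets, tested or not, and 364 of them were tested.

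The calls were then counted by subgenome. Of 24678 A targets tested, 7.5% were higher and 12.1% lower, and of 27359 C targets 8.3% were higher and 7.4% lower. Leaving out Zhongshuang 9 replicate 1 gave 9.9% and 18.6% in A and 9.8% and 11.1% in C. The median log2 fold change was -0.07 over A targets and 0.05 over C targets. In the libraries, A targets held 46.54% ± 0.65 of the counts assigned to either subgenome in Zhongshuang 9 and 49.36% ± 0.66 in Avatar (SD, n = 3 each; exact permutation test, two-sided, p = 0.1, the smallest p that 3 against 3 allows). Zhongshuang 9 libraries ranged from 45.8% (replicate 1) to 46.96% and Avatar libraries from 48.95% to 50.12%, so the groups did not overlap. Targets at 1 CPM or more numbered 40294 to 40881 in Zhongshuang 9 and 41861 to 42960 in Avatar (exact permutation test, two-sided, p = 0.1). The 20 most counted targets held 7.75% ± 0.44 of the counts in Zhongshuang 9 and 8.14% ± 0.63 in Avatar (SD, n = 3 each), which overlapped (exact permutation test, two-sided, p = 0.4).

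Chromosomes differed widely in these shares. Lower targets reached 17.5% of those tested on A10 and 16.7% on A01, and were fewest on C08 (4.6%). Higher targets reached 13.4% on A05 and 10% on C02, and were fewest on A06 (4.6%). A06 had the lowest median log2 fold change, -0.20, and C08 the highest, 0.17. Both are chromosomes where single libraries were shifted. In Avatar replicate 1, 27 of 40 blocks of 40 neighbouring targets on C08 were lowered by at least 0.6 on the log2 scale relative to the median of the 3 Avatar libraries. In Zhongshuang 9 replicate 1 this held for 13 of 40 blocks on A06. Without Zhongshuang 9 replicate 1, lower targets on A06 were 21.1% and higher ones 9.2%, on A07 14.8% and 8.7%, in place of 6.3% and 5.2%. With Avatar replicate 1 left out, 7% of C08 targets were lower and 5.4% higher, in place of 4.6% and 6.7%, and the median there was 0.004. Leaving out every shifted block gave 9185 calls over all chromosomes.

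**Figure D4:**
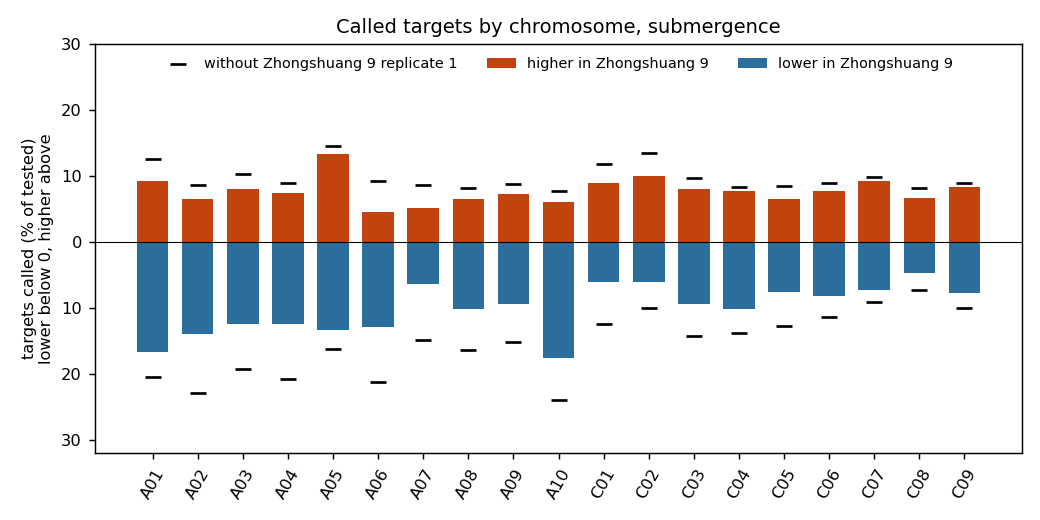
Share of tested targets called higher (above 0) and lower (below 0) in Zhongshuang 9 under submergence on each of the 19 chromosomes; black marks show the shares without Zhongshuang 9 replicate 1. Lower calls peak on A10 (17.5%) and A01 (16.7%), higher calls on A05 (13.4%).

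Neighbouring targets often differed in the same direction. Of 756 blocks of about 40 neighbours, 61 had a median log2 fold change of -0.3 or lower, 53 of them on A chromosomes, and 51 had a median of 0.3 or higher, 19 of them on A. For scale, 47.3% of all targets tested were A targets, and 7.93% of all were called higher and 9.63% lower. The blocks named next were picked from these same values, so their counts of calls are a description. The strongest block on A05 (gene numbers 30940 to 31940) had a median of 1.14, with 22 of 40 targets called higher and 1 lower. Another on A05 (gene numbers 7930 to 9020) had a median of -0.81, with 25 of 40 called lower and 2 higher. On A10 (gene numbers 18470 to 19460) the median was -0.94, with 21 lower and 3 higher. On C09 (gene numbers 49780 to 50580) it was 0.86, with 26 of 40 called higher and none lower. With that replicate of Zhongshuang 9 left out these medians were 1.04, -0.86, -0.95 and 0.75. In air they were 0.81, -0.93, -0.44 and 0.34, each with the same sign. Over all 756 blocks, the rank correlation between medians under submergence and in air was 0.48. Of the 61 lower blocks 57 had a negative median in air and 49 stayed at -0.3 or lower without Zhongshuang 9 replicate 1. Of the 51 higher blocks 35 had a positive median in air and 29 stayed at 0.3 or higher. Of these 51, 14 were on C08, and in each of the 14 Avatar replicate 1 was lowered, with shifts of -0.68 to -1.08 on the log2 scale. Without Avatar replicate 1 none of the 14 reached 0.3, and 29 of the 51 higher and 56 of the 61 lower blocks kept their side of the limit. The C08 blocks were also 13 of the 16 higher blocks without a positive median in air. The 4 blocks described above had medians of 1.04, -0.89, -0.97 and 0.93 without Avatar replicate 1, in the order given.

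To ask whether the difference belongs to the cultivars or to the treatment, each target's value in air was set beside it. In air alone 11389 of 50352 targets (22.6%) were called, 4133 higher (8.21%) and 7256 lower (14.4%) in Zhongshuang 9. The air and submergence fits share no library. Of the 9161 targets called under submergence, 8221 were tested in air, and 7375 (89.7%) had the same direction there, against 67.4% of all targets tested in both. In air 4444 (54.1%) passed the test in the same direction and 60 in the opposite one. Over all 47837 targets tested in both, 9605 (20.1%) passed in air in the same direction and 1025 in the opposite one. By size, 82.2% of calls under 2-fold had the same direction in air, 89% of those from 2 to under 4-fold, 94.1% from 4 to under 16-fold and 99.3% of the 1002 at 16-fold or more. Of the lower targets 65.5% passed in air in the same direction, and of the higher ones 39.7%. A difference between these shares was not tested. Of the calls made without Zhongshuang 9 replicate 1, 90.5% had the same direction in air, from 81.8% under 2-fold to 99% at 16-fold or more. Of these lower targets 66.3% passed in air, and of the higher ones 43.1%.

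**Figure D5:**
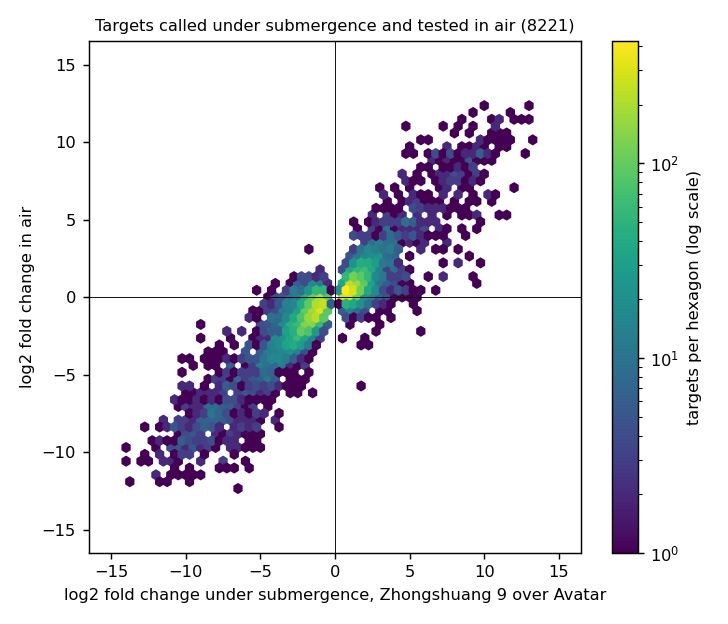
Log2 fold change of Zhongshuang 9 over Avatar under submergence (horizontal axis) and in air (vertical axis) for the 8221 targets called under submergence and tested in air; colour gives the number of targets per hexagon on a log scale. Most targets lie in the lower left and upper right of the plot, and 89.7% have the same sign in both.

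A test of the change between the treatments, over all 12 libraries, called 694 targets (1.25% of 55674; 0.438% shifted upward and 0.808% downward). Of these, 524 were also called under submergence, where 17.6% of all targets tested were called. The test uses the same submergence and air libraries as the separate fits, so these overlaps are partly built in and are a description. For 178 of the 524 the difference between Zhongshuang 9 and Avatar was shifted upward under submergence relative to air and for 346 downward. In air, 109 of the 524 passed the test in the same direction as under submergence, 59 in the opposite one, 344 were tested without passing and 12 were not tested. The interaction test without submerged Zhongshuang 9 replicate 1 called 887 targets (1.56% of 56762; 0.541% upward and 1.02% downward), 719 of them also called under submergence and 427 among the 524. The 524 became 553 without Avatar submergence replicate 1 and 500 without that cultivar's air replicate 1, and fewer with any other library left out. Among the submerged ones it was 246 for Zhongshuang 9 replicate 3, 153 for its replicate 4, 152 for Avatar replicate 3 and 206 for its replicate 4. Among those in air it was 229 for Zhongshuang 9 replicate 1, 89 for its replicate 3, 126 for its replicate 4, 156 for Avatar replicate 3 and 150 for its replicate 4.

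BnaCnng28130D was at 7.81, 6.92 and 6.28 CPM in submerged Zhongshuang 9 and at 0.0939, 0.0572 and 0.0528 CPM in submerged Avatar. In air the cultivars had 4.39 to 4.98 CPM (Zhongshuang 9) and 2.21 to 3.85 CPM (Avatar). It was near silent only in submerged Avatar, and the log2 fold change between cultivars was 6.64 ± 0.29 under submergence and 0.63 ± 0.22 in air (SE, edgeR adjusted p = 0.000332 and 0.0921).

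BnaC01g19760D was at 20.19, 23.66 and 18.73 CPM in submerged Zhongshuang 9 and at 7.63, 8.49 and 7.71 CPM in submerged Avatar. In air the order was turned, with 10.36 to 11.51 CPM in Zhongshuang 9 and 15.84 to 17.89 CPM in Avatar. The log2 fold change was 1.43 ± 0.15 under submergence and -0.68 ± 0.10 in air (SE, edgeR adjusted p = 0.00216 and 0.00354).

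BnaC04g18290D turned the other way. It was at 1.51, 1.6 and 2.32 CPM in submerged Zhongshuang 9 and at 6.83, 8.63 and 8.81 CPM in submerged Avatar, but at 8.75 to 12.62 CPM in Zhongshuang 9 in air and 3.54 to 4.12 CPM in Avatar in air. Its log2 fold change was -2.13 ± 0.24 under submergence and 1.45 ± 0.17 in air (SE, edgeR adjusted p = 0.00282 and 0.00127).

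BnaA08g25120D was lower in Zhongshuang 9 in both treatments and more so under water. It was at 0.377, 0.461 and 0.374 CPM in submerged Zhongshuang 9 and at 9.65, 11.06 and 10.08 CPM in submerged Avatar. In air Zhongshuang 9 had 4.35 to 6.3 CPM and Avatar 17.89 to 20.79 CPM, so the log2 fold change was -4.62 ± 0.19 under submergence and -1.90 ± 0.15 in air (SE, edgeR adjusted p = 0.000292 and 0.000291). Without that cultivar's submergence replicate 1 the cultivar differences of these 4 targets under water were 6.51, 1.42, -2.05 and -4.60, in the order given. In none of them did Zhongshuang 9 replicate 1 lie apart from replicates 3 and 4 by more than 2-fold.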

How the data were processed

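Leaf RNA of 12 libraries was sequenced on an Illumina instrument from strand-marking (dUTP) libraries, per the labels' protocols. The authors deposited estimated counts (expected counts, not all whole) and TPM per coding sequence with its length, and the tools listed are kallisto, edgeR and limma, per the submitters' processing notes. No genome build, annotation, version or strand setting is given in the sources used here. Of the deposited estimated counts in the 6 submergence libraries, 36.92% were further than 0.001 from a whole number. All coding lengths are multiples of 3.

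Estimated counts were rounded. Targets were kept by filterByExpr of edgeR 4.0.16 (R 4.3.3), scaled by TMM factors (0.956 to 1.095 in the main fit), and tested by edgeR's quasi-likelihood F test on the 6 submergence libraries, with Benjamini-Hochberg adjustment and 0.05 as threshold. Air libraries were fitted separately and the interaction over all 12. Fold changes are Zhongshuang 9 over Avatar, and standard errors were derived from fold change and F. Positions between groups and block medians use log2 CPM with 2 counts added. The fit was tried on simulated counts with the same dispersion for every target. No simulated library stood apart from its group, so this does not test the fit for such a library. No pair of replicates agreed within sampling noise (smallest chi-square per target 4.79).

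Members and lists were chosen with earlier results of these data known. Functional groups and tissue markers needed gene names and could not be evaluated. Named targets are the 2 higher and 2 lower with the largest fold change past the threshold with and without Zhongshuang 9 replicate 1, averaging 5 CPM or more in the higher cultivar. The 2 per direction with the smallest interaction p, the 2 per direction with the largest fold change called only without that library, and the 2 with a RefSeq name were added after the files were seen, as were the blocks and the markers from air. Alternatives were RLE factors, library totals, DESeq2 1.42.0, limma 3.58.1 (voom, or log2 TPM with 1 or 0.1 added), other filters, all 12 libraries in the fit, a replicate block, libraries left out and shifted blocks left out.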

Additional observations from a re-analysis of the deposited data

Results flagged for a closer look

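For 4 named targets the difference between the cultivars under submergence departed from that in air by a direct test of the change (edgeR interaction test over 12 libraries, log2 difference ± SE, 3 libraries per group). It was 5.91 ± 0.37 for BnaCnng28130D (edgeR adjusted p = 0.0006) and 2.02 ± 0.17 for BnaC01g19760D (edgeR adjusted p = 0.00168). It was -3.66 ± 0.29 for BnaC04g18290D and -2.8 ± 0.23 for BnaA08g25120D (edgeR adjusted p = 0.00168 each). All 4 passed with each of the 12 libraries left out in turn, but they had been picked for low p-values in these very libraries.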

How the results depend on the processing

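The direction of all 14 named targets held under every alternative that could be fitted, and the 8 named for their fold change or interaction passed the threshold in each. Those named for their fold change had been chosen to pass without Zhongshuang 9 replicate 1 as well, so that setting is no test of them. With single libraries left out, calls under submergence ranged from 4752 to 13142, higher ones from 1790 to 5282 and lower ones from 2901 to 7860. Without replicate 1 of both cultivars they were 18469, 8275 and 10194. DESeq2 called 6331 higher, and the fit over all 12 libraries called 7929 lower. Targets in Zhongshuang 9 only ranged from 858 to 1037 and those in Avatar only from 1288 to 1900 with a library left out, and were 135 and 374 with at least 10 counts. The number called in the interaction and under submergence ranged from 89 to 719 and was 1609 with DESeq2. The air count ranged from 8044 to 11670. With a library left out, the cultivar gap (Zhongshuang 9 minus Avatar) stayed between -3.027 and -2.441 points for the A share of counts, between -2091 and -1542 for targets at 1 CPM, and between -0.7063 and -0.07533 points for the 20 most counted targets. Higher calls were 45.2% of the total, 45% with RLE factors and 38.3% with library totals only.

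With the replicate number as a block there were 5909 calls, 2713 higher and 3196 lower, and 242 in the interaction. The block kept 58.6% of the calls of the main fit and left fewer residual degrees of freedom. The labels do not say what same-numbered libraries share. Deviations of same-numbered libraries correlated at 0.128, 0.044 and 0.1 across targets, for replicates 1, 3 and 4. Between different numbers the correlations ran from -0.134 to 0.072. Replicate 1 of each cultivar correlated positively only with replicate 1 of the other. Replicates 3 and 4 also correlated positively across numbers, at 0.064 and 0.072, so not every library correlated best with its own number. Deviations within a group depend on each other, so these correlations are not separate observations. Whether same-numbered libraries share a factor was not tested. A count of 0 allows 0.0704 to 0.112 CPM in a submerged library, so presence in only one cultivar cannot be told from presence in both below that level.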
